A study of Homo sapiens with 9 samples.

Results

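The glucocorticoid receptor (NR3C1), the progesterone receptor (PGR) and 7 genes known to be induced through them (FKBP5, SGK1, DUSP1, TSC22D3, KLF9, ZBTB16 and PER1) were examined in HCT116 colon cancer cells that express an isoform of tazarotene-induced gene 1 (TIG1). All probe sets annotated to them were used, 27 of the 54675 on the array. Of these, 23 carry 1 gene symbol, and the 4 of PER1 are annotated to PER1 and the microRNA gene MIR6883 together and are given separately.

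Total RNA was hybridised to 9 Affymetrix HG-U133 Plus 2.0 arrays, 3 per group. TIG1A cells carry an inducible plasmid for the longer TIG1 isoform, TIG1B cells one for the shorter isoform, and control cells the empty pGene/V5 vector. All 3 groups also carry pSwitch, were grown in McCoy's 5A medium with serum, and received 5 nM mifepristone (MFP) for 24 h. Each group is 1 stable line, so the isoform and any other difference between the lines cannot be told apart, and the 3 arrays of a group are separate samples of that line. No culture without MFP was arrayed, and the effect of MFP itself was therefore not measured.

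Both receptors are transcription factors that sit with heat shock protein chaperones until a steroid binds, and then attach to the same kind of palindromic DNA element, with coactivators or corepressors deciding the output. MFP binds both receptors, as an antagonist of the glucocorticoid receptor and as an antagonist or partial agonist of the progesterone receptor. The regulator encoded by pSwitch joins the DNA-binding part of yeast GAL4, a truncated ligand-binding domain of human PGR and an activation domain of NF-kB, which is why MFP switches the plasmids on. In intestinal epithelium, glucocorticoids act on ion transport, inflammation and differentiation, and the serum of ordinary growth medium contains steroids.

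The promoters of 4 target genes are shown because they hold the response element letters searched for, or, for DUSP1, the cyclic AMP element for which its promoter is known. They run from 250 bases before a start site to 30 after it, on the minus strand of GRCh38.p14, and are taken from RefSeq. Capitals mark the match.
FKBP5, an upstream start site, chr6:35728554-35728833: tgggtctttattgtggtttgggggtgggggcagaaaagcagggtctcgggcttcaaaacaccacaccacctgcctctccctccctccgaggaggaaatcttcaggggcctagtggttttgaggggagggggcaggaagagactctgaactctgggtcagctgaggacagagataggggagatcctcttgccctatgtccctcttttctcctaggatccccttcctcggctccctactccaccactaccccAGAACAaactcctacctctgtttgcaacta
SGK1, an upstream start site, chr6:134177832-134178111: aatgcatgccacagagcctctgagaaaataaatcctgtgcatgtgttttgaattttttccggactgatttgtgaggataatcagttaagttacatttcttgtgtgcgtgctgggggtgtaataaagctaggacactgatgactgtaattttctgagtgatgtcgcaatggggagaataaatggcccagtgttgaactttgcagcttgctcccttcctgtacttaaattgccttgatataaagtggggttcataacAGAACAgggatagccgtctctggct
TSC22D3, an upstream start site, chrX:107775959-107776238: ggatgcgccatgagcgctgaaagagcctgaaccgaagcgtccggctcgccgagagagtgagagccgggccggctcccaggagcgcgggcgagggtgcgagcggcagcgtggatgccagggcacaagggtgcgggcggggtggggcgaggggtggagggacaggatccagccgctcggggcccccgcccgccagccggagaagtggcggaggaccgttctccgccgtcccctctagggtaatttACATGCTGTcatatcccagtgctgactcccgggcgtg
DUSP1, chr5:172771166-172771445: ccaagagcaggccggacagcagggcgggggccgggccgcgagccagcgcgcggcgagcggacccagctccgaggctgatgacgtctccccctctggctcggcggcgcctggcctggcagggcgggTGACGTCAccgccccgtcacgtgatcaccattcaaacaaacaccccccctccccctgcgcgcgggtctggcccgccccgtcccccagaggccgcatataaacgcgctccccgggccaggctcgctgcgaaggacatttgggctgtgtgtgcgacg

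These windows are 4 of 22 that RefSeq gave for 8 of the 9 genes (ZBTB16 had none), each searched on both strands over its full 300 bases. The core of the response element, ACANNNTGT, is its own reverse complement and was found in 2 of the 22 windows, which overlap and share a single TSC22D3 match that begins 7 bases before the start site of the window shown. It is held by 5.37% of all 35116 RefSeq promoters of that length. A single arm of it, TGTTCT, or AGAACA on the other strand, was found in 2 windows, at base 1 after the FKBP5 start and base 6 after the SGK1 start, against 14.8% of all promoters. The cyclic AMP response element TGACGTCA was found in the DUSP1 window alone, 125 bases before the start, against 1.85% of all promoters. Response elements of these genes are also known to lie far from their start sites, outside such windows, and a match is only a match of letters.

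Signal intensities are linear values without a unit, scaled by the authors to the same mean on every array, and the array medians ranged from 59.9 to 73.9. Tested were the 29977 probe sets that were no dimmer than the array median on 2 or more arrays of any group, among them 17 of the 23 and 2 of the 4 for PER1. Fold changes are on the log2 scale, and adjusted p-values are from limma with the Benjamini-Hochberg procedure over all 29977 probe sets at a threshold of 0.05. The induced gene, RARRES1 (TIG1), read 58452 to 66754 in TIG1A cells, 36413 to 44513 in TIG1B cells and 2.90 to 5.17 in control cells on its brightest probe set. Of the colon epithelial markers, EPCAM, CDH1, KRT8, KRT18 and KRT19 were bright in all groups. VIL1, LGALS4 and KRT20 lay near the array medians. CDX2 averaged 142.9 in TIG1A cells, 131.2 in TIG1B cells and 107.9 in control cells, with single TIG1A arrays from 37.1 to 265.2. KRT19 fell in TIG1A cells (log2 fold change -0.66, adjusted p = 0.0267) and in TIG1B cells (-0.66, adjusted p = 0.0435), and CDH1 rose in TIG1A cells (0.59, adjusted p = 0.0481). No marker of another cell type passed in any comparison, PTPRC and COL1A2 did not reach the filter, and CD68 had no probe set with 1 symbol. ACTA2, VIM and PECAM1 were tested and read above the array medians. ACTA2 averaged 444.5 in TIG1A cells, 628.7 in TIG1B cells and 523.1 in control cells. In the same order VIM averaged 151.4, 122.8 and 123.4, and PECAM1 87.3, 128.0 and 167.9. Both comparisons with control cells share the same 3 control arrays.

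Among the receptors, 1 of the 4 tested NR3C1 probe sets rose in TIG1A cells and the other 3 did not pass in any comparison. On 216321_s_at the intensities were 749.3, 845.6 and 895.5 in TIG1A cells, 480.1, 516.2 and 531.2 in TIG1B cells and 588.0, 382.7 and 303.4 in control cells. All TIG1A arrays lay above all arrays of the other groups, and the control 1 array lay above every TIG1B array. The difference between TIG1A and control cells was 1.02 ± 0.24 (standard error), or 2.03-fold, with an adjusted p of 0.0475. It was 0.32 for TIG1B against control cells (adjusted p = 0.515) and 0.70 for TIG1A against TIG1B cells (95% interval 0.16 to 1.25, adjusted p = 0.271). This call was close to the threshold and was lost without any 1 of 8 arrays (log2 fold change 0.80 to 1.09, adjusted p = 0.0661 to 0.137), namely control 2 or 3 or any TIG1A or TIG1B array.

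Other NR3C1 probe sets did not share that pattern. On 201865_x_at the intensities were 359.7, 510.0 and 654.6 in TIG1A cells, 339.4, 372.4 and 340.4 in TIG1B cells and 541.9, 616.5 and 493.2 in control cells. Here the TIG1B arrays were the low ones and did not overlap with control cells (-0.65, 95% interval -1.16 to -0.13, adjusted p = 0.179), while TIG1A cells spanned both (-0.15, adjusted p = 0.704). On 201866_s_at the means were 479.3 ± 100.9 in TIG1A cells, 438.2 ± 108.9 in TIG1B cells and 495.5 ± 102.0 in control cells (SD, n = 3 each), and on 211671_s_at 314.0 ± 106.6, 236.9 ± 113.4 and 306.5 ± 82.1 in that order, with all groups overlapping on both. The remaining probe set, 232431_at, read under the array median on all arrays but 1 (100.5 on TIG1A 3, and 0.66 to 27.1 on the others) and was not tested. Across the 9 arrays 216321_s_at correlated with the other 3 tested probe sets at r = 0.0933, 0.0836 and 0.254, so the probe sets of this gene do not give 1 common profile, and their mean over all kept probe sets differed by 0.21 between TIG1A and control cells (adjusted p = 0.481).

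PGR has 2 probe sets, of which 1 was bright on every array and the other below the array median on every array. On 208305_at the intensities were 11464, 9476 and 9778 in TIG1A cells, 7268, 7889 and 7422 in TIG1B cells and 6915, 5895 and 7659 in control cells. TIG1A arrays were again higher than all others, whereas TIG1B and control cells overlapped. The difference between TIG1A and control cells was 0.59 (95% interval 0.24 to 0.93), or 1.5-fold, and did not pass the threshold (adjusted p = 0.0594). TIG1B and control cells differed by 0.15 (-0.20 to 0.49, adjusted p = 0.634), and TIG1A and TIG1B cells by 0.44 (0.10 to 0.78, adjusted p = 0.274). On 228554_at the values were 9.80, 42.5 and 12.1 in TIG1A cells, 27.0, 53.2 and 6.50 in TIG1B cells and 52.6, 43.4 and 7.01 in control cells. Since all lines carry a regulator with part of human PGR, transcripts of the native gene and of pSwitch cannot be told apart here, and which part of the transcript each probe set reads was not tested.

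**Figure D1:**
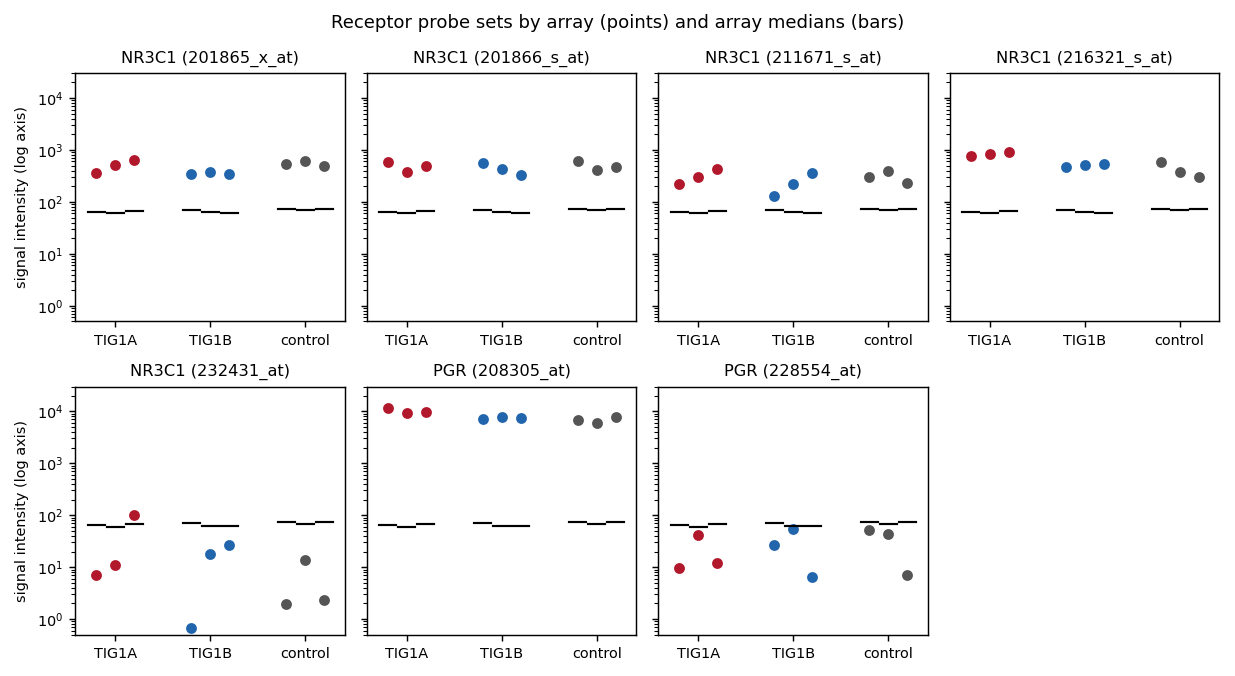
Signal intensity (log axis, no unit) of the 7 receptor probe sets on each array, with TIG1A, TIG1B and control cells from left to right and 3 points per group. Short bars are the medians of the same arrays: NR3C1 216321_s_at and PGR 208305_at sit higher in TIG1A cells than in both other groups, and NR3C1 232431_at and PGR 228554_at lie around or under the medians.

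Of the target genes, FKBP5, which encodes a co-chaperone that lowers the affinity of the glucocorticoid receptor for its ligand, rose in TIG1A cells on 2 of its 3 probe sets. On 224840_at, the intensities were 12166, 11176 and 11515 in TIG1A cells, 8246, 10320 and 9987 in TIG1B cells and 7901, 6540 and 5385 in control cells. On 204560_at they were 3490, 2779 and 2965 in TIG1A cells, 2631, 2702 and 2517 in TIG1B cells and 1908, 1737 and 1681 in control cells. On 224856_at they were 5728, 5556 and 5123 in TIG1A cells, 4758, 5145 and 5061 in TIG1B cells and 4695, 3918 and 3513 in control cells. All 3 probe sets gave the same order, TIG1A above TIG1B above control cells, and on each the arrays of both TIG1 lines lay above all control arrays.

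The difference between TIG1A and control cells was 0.83 ± 0.17 on 224840_at (1.78-fold, adjusted p = 0.0368), 0.79 ± 0.14 on 204560_at (1.73-fold, adjusted p = 0.0221) and 0.45 ± 0.15 on 224856_at (1.36-fold, adjusted p = 0.109). For TIG1B against control cells it was 0.54, 0.56 and 0.31 on the same probe sets, none past the threshold (adjusted p = 0.162, 0.0877 and 0.301). TIG1A and TIG1B cells, neighbours in that order, did not differ past the threshold, with intervals of -0.11 to 0.70, -0.09 to 0.54 and -0.20 to 0.47. The probe sets correlated with one another at r = 0.907 to 0.971 over the 9 arrays. On 204560_at the F test for any difference among the 3 groups also passed (adjusted p = 0.0405). The call on 224840_at was lost without control 2 or 3, any TIG1A array, or TIG1B 2 or 3 (0.69 to 0.86, adjusted p = 0.0653 to 0.106) and after quantile normalization (0.76, adjusted p = 0.0563), and that on 204560_at without control 2 or 3, any TIG1A array or TIG1B 3 (0.70 to 0.86, adjusted p = 0.05 to 0.0782).

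SGK1 is a kinase that raises sodium transport by keeping the epithelial sodium channel at the cell surface. It was the only gene of the 9 that rose past the threshold in both TIG1 lines. Its single probe set, 201739_at, read 1791, 1803 and 1621 in TIG1A cells, 2088, 2426 and 2245 in TIG1B cells and 1046, 901.8 and 1202 in control cells. No groups overlapped, and unlike FKBP5 the TIG1B arrays were the highest. The rise was 0.74 ± 0.15 in TIG1A cells (1.67-fold, adjusted p = 0.0339) and 1.11 ± 0.15 in TIG1B cells (2.16-fold, adjusted p = 0.0218), with an adjusted p of 0.0228 for any difference among the groups. TIG1A and TIG1B cells differed by -0.37 (95% interval -0.72 to -0.03), which did not pass over all probe sets (adjusted p = 0.342). The TIG1A call was lost without control 2, any TIG1A array, or TIG1B 2 or 3 (0.63 to 0.78, adjusted p = 0.0624 to 0.11), and the TIG1B call without control 2, TIG1A 2 or any TIG1B array (1.00 to 1.16, adjusted p = 0.053 to 0.0877).

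DUSP1, a phosphatase that switches off mitogen-activated protein kinases and takes part in the anti-inflammatory action of glucocorticoids, rose in TIG1A cells on 1 of 3 probe sets. On 201044_x_at the intensities were 290.4, 329.9 and 282.0 in TIG1A cells, 174.9, 205.0 and 230.3 in TIG1B cells and 117.9, 164.3 and 62.8 in control cells, with no overlap between groups. On 201041_s_at they were 3007, 3718 and 3533 in TIG1A cells, 1981, 3315 and 2384 in TIG1B cells and 2456, 1597 and 1396 in control cells. TIG1A arrays again lay above all control arrays, whereas the TIG1B arrays overlapped with both other groups.

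On 201044_x_at the rise in TIG1A cells was 1.49 ± 0.32 (2.81-fold, adjusted p = 0.0402), and the TIG1B difference of 0.92 (95% interval 0.17 to 1.67) did not pass (adjusted p = 0.19). On 201041_s_at the differences from control cells were 0.95 in TIG1A cells (0.33 to 1.57, adjusted p = 0.0759) and 0.51 in TIG1B cells (-0.11 to 1.12, adjusted p = 0.357). These probe sets correlated at r = 0.81 over the 9 arrays. The third probe set, 226578_s_at, went another way, with 166.7, 89.5 and 24.7 in TIG1A cells, 269.8, 107.7 and 144.9 in TIG1B cells and 194.1, 113.9 and 133.1 in control cells (TIG1A against control cells -1.0, 95% interval -2.56 to 0.56, adjusted p = 0.394), and its correlations with them were -0.463 and -0.365. Averaged over its 3 probe sets, DUSP1 differed by 0.48 between TIG1A and control cells (adjusted p = 0.281). The call on 201044_x_at was lost without control 1 or any TIG1A or TIG1B array (1.42 to 1.56, adjusted p = 0.0526 to 0.12). Control 3, at 62.8, lay below its array median of 73.9 on this probe set. Without control 3 the difference was smaller and still passed (1.11, adjusted p = 0.0426). Without control 1, the brightest control array on 201041_s_at, that probe set passed in TIG1A cells (1.19, adjusted p = 0.0319).

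**Figure D2:**
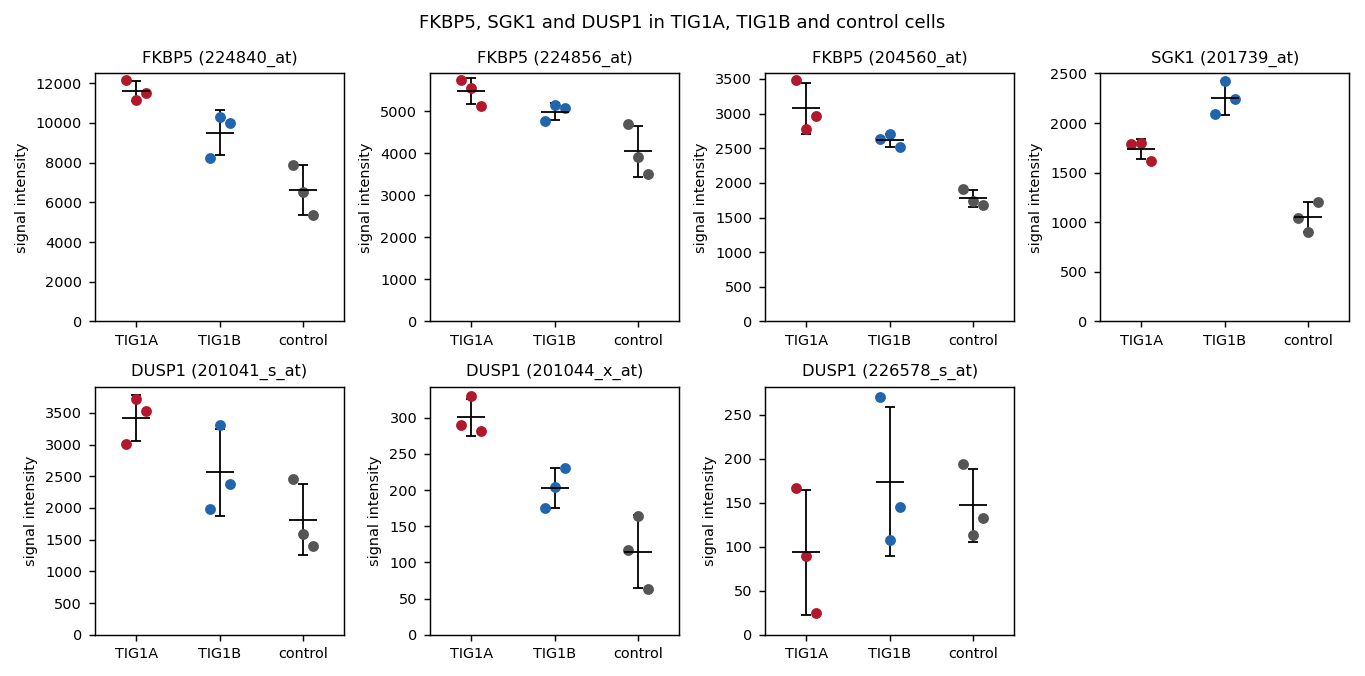
Signal intensity (linear axis from 0, no unit) of the 7 FKBP5, SGK1 and DUSP1 probe sets on each array, TIG1A, TIG1B and control cells from left to right, with the mean and SD of the 3 arrays of a group as bars. TIG1A cells are highest for FKBP5 and on 2 DUSP1 probe sets, TIG1B cells for SGK1, and in every panel but the dimmest DUSP1 probe set the TIG1A arrays lie above all control arrays.

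The remaining target genes had no probe set past the threshold. TSC22D3 encodes GILZ, a leucine zipper protein that carries part of the anti-inflammatory glucocorticoid response. On 208763_s_at it read 501.9, 523.6 and 459.5 in TIG1A cells, 250.5, 309.2 and 328.5 in TIG1B cells and 502.3, 310.8 and 339.2 in control cells. Every TIG1A array lay above every TIG1B array, and control 1 stood with TIG1A while control 2 and 3 stood near TIG1B. This was the lowest adjusted p of the 17 probe sets between the TIG1 lines, yet it did not pass (0.75, 95% interval 0.27 to 1.23, adjusted p = 0.198), and the differences from control cells were 0.40 for TIG1A (adjusted p = 0.281) and -0.35 for TIG1B cells (adjusted p = 0.411). On 207001_x_at the values were 170.1, 64.7 and 70.2 in TIG1A cells, 173.3, 125.4 and 118.0 in TIG1B cells and 121.3, 116.1 and 58.8 in control cells, which all overlap. On 235364_at single arrays ranged from 7.11 to 95.2 and all groups overlapped. This probe set passed the filter through TIG1A cells alone, with all TIG1B arrays and 2 control arrays below their array medians. The 3 probe sets correlated at r = -0.315 to 0.0411.

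KLF9, a zinc finger transcription factor that also interacts with the progesterone receptor, had 2 of 5 probe sets above the filter. On 203543_s_at the intensities were 322.2, 426.7 and 385.7 in TIG1A cells, 342.6, 506.3 and 316.8 in TIG1B cells and 848.3, 239.4 and 263.9 in control cells. Control 1 stood far above control 2 and 3, and it was also the highest array on 203542_s_at (575.3, against 206.8 to 356.7 in TIG1A cells, 234.7 to 306.4 in TIG1B cells and 147.7 to 322.0 on the other control arrays). With that array the differences on 203543_s_at were -0.01 for TIG1A (95% interval -1.08 to 1.07) and 0.01 for TIG1B against control cells (-1.06 to 1.09). Without it they were 0.58 and 0.60, neither past the threshold. Its other 3 probe sets read between 5.16 and 82.1 and were not tested.

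ZBTB16 encodes PLZF, a zinc finger repressor that responds strongly to progestins and glucocorticoids in many tissues, such as endometrium. Its probe set 205883_at read 4.91, 57.3 and 43.9 in TIG1A cells, 12.8, 33.4 and 47.7 in TIG1B cells and 51.0, 61.1 and 98.0 in control cells. A single array, control 3, exceeded its array median, and the gene was not tested.

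PER1, a core repressor of the circadian clock that is induced rapidly by glucocorticoids, was lower in both TIG1 lines on average but did not pass. On 36829_at the intensities were 547.5, 454.2 and 551.4 in TIG1A cells, 557.8, 633.1 and 439.7 in TIG1B cells and 890.4, 614.6 and 984.3 in control cells. TIG1A arrays lay below all control arrays, and TIG1B 2 overlapped with control 2. The differences were -0.66 for TIG1A (95% interval -1.18 to -0.14, adjusted p = 0.12, and 0.0376 with the filter at the 75th percentile) and -0.60 for TIG1B against control cells (-1.12 to -0.08, adjusted p = 0.212). On 202861_at the means were 582.0 ± 182.6 in TIG1A cells, 452.6 ± 83.3 in TIG1B cells and 777.9 ± 231.3 in control cells (SD, n = 3 each), with differences from control cells of -0.42 (adjusted p = 0.423) and -0.75 (adjusted p = 0.238). The other PER1 probe sets read between 3.29 and 87.7 and were not tested. PER1 is left out of the totals that follow because its probe sets also carry the MIR6883 symbol.

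Of the 17 tested probe sets with 1 symbol, 5 rose and 0 fell in TIG1A against control cells, where 6.06% of all tested probe sets passed, 2.86% higher and 3.2% lower. These 5 are 2 of FKBP5 and 1 each of SGK1, DUSP1 and NR3C1, and probe sets of the same gene are not separate observations. The genes were chosen with earlier results of these data known, so such shares do not test the set. In TIG1B against control cells 1 rose (SGK1) and 0 fell, where 1.78% of all tested probe sets passed, 0.701% higher and 1.08% lower. The median log2 fold change of the 17 was 0.40 in TIG1A cells, with -0.04 over all probe sets, and 0.17 in TIG1B cells, with -0.03 over all. At an unadjusted p under 0.05 the numbers were 8 and 5 of 17 (47.1% and 29.4%), beside 25% and 18.5% of all tested probe sets. Centring each array on its median moved the share of higher among all called probe sets to 78.1% in TIG1A and 70.5% in TIG1B cells, from 47.2% and 39.3%, and called 6 and 1 of the 17, all higher. The groups did not overlap on 8 probe sets in TIG1A and 6 in TIG1B against control cells, beside 30.7% and 24.9% of all tested probe sets.

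In TIG1A against TIG1B cells 0 of the 17 passed with limma, beside 0.417% of all (0.277% higher and 0.14% lower), and 4 (23.5%) had an unadjusted p under 0.05, beside 13.3% of all. The median was 0.29, with 0.00 over all probe sets, and 7 probe sets did not overlap between the lines, beside 24.1% of all. By the F test, 2 of the 17 differed among the 3 groups (204560_at of FKBP5 and 201739_at of SGK1), beside 4.07% of all. None of the 17 passed after Benjamini-Hochberg adjustment without the filter, with the 6 arrays of a comparison alone, with a term for the replicate number, or by the methods' t-test, and 0 to 6 passed in TIG1A and 0 to 1 in TIG1B cells when 1 array was left out.

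**Figure D3:**
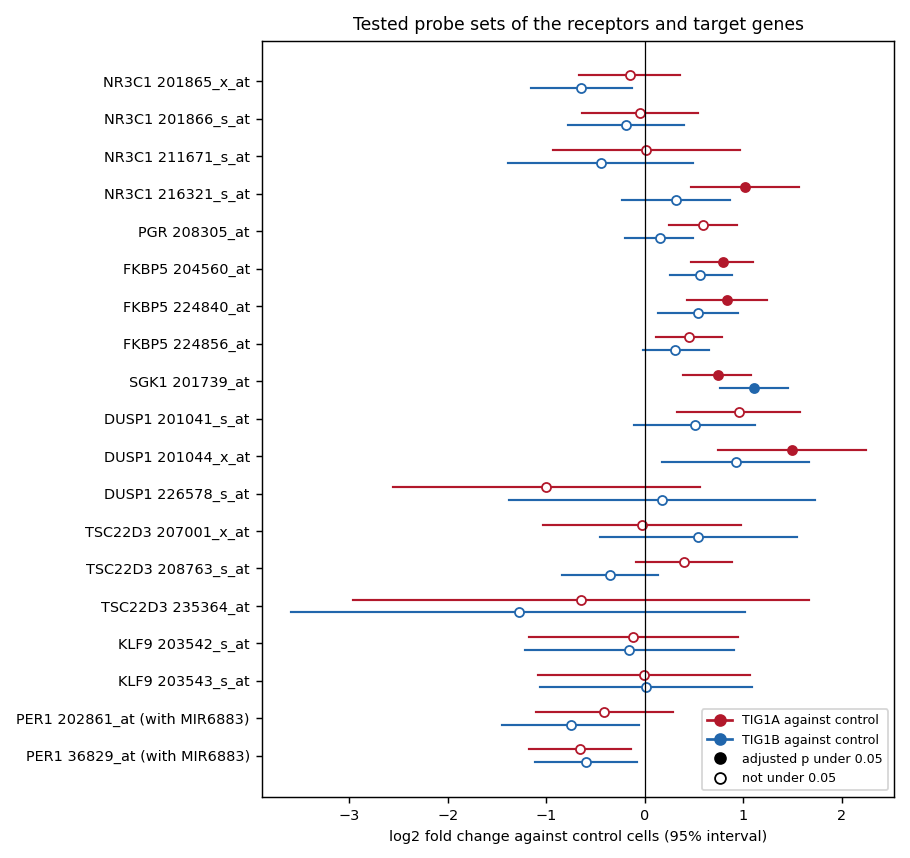
Log2 fold change with its 95% interval (limma) of the 19 tested probe sets, TIG1A above TIG1B in each row, both against the same control arrays, with filled points at an adjusted p under 0.05. FKBP5 and SGK1 lie right of 0 on every probe set in both lines, with intervals that cross 0 for 224856_at of FKBP5 in TIG1B cells, whereas the PER1 probe sets lie left of 0 and probe sets of NR3C1, DUSP1 and TSC22D3 differ within a gene.

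Beyond these genes, 4 lists of the pathway were described on the brightest tested probe set of each gene. The lists too were chosen with earlier results of these data known, so their shares do not test them. Of all 13407 genes, 3.38% rose and 3.62% fell in TIG1A against control cells (7% in all). In TIG1B against control cells 0.641% rose and 1.21% fell (1.85% in all). Chaperones and transport factors of the receptors had 13 of 14 genes tested, and none passed limma's test in any comparison (3 and 2 at an unadjusted p under 0.05 in TIG1A and TIG1B against control cells, or 23.1% and 15.4%, beside 27.7% and 19.9% of all genes). The medians of the list were -0.18 in TIG1A and -0.11 in TIG1B cells on the log2 scale, beside -0.03 and -0.01 over all genes. HSP90AA1 and HSP90AB1, the chaperones that hold the unbound receptor, differed from control cells by 0.04 and 0.03 in TIG1A and by 0.01 and 0.07 in TIG1B cells. The lowest adjusted p was that of DNAJB1, a co-chaperone of HSP70, with means of 4198 in TIG1A cells, 4841 in TIG1B cells and 6637 in control cells (-0.66, adjusted p = 0.0612, and -0.46, adjusted p = 0.208). HSPA4 (-0.37 and -0.23), BAG1 (0.55 and 0.25) and IPO13 (-0.54 and -0.76), a nuclear import factor, had adjusted p-values of 0.146 to 0.551.

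Coregulators moved in both directions. Of 15 listed coactivators and corepressors 11 were tested, with 1 higher and 3 lower in TIG1A cells and 1 lower in TIG1B cells. By limma, 9 in TIG1A and 7 in TIG1B cells had an unadjusted p under 0.05 (81.8% and 63.6%). Of all genes 27.7% and 19.9% did. NCOA1 (SRC-1), a coactivator that binds the liganded receptors, averaged 1480 ± 44.3 in TIG1A cells, 966.2 ± 179.5 in TIG1B cells and 704.7 ± 152.7 in control cells (SD, n = 3 each). It rose in TIG1A cells by 1.09 (adjusted p = 0.0294) and was 0.46 from control in TIG1B cells (adjusted p = 0.291). The histone acetyltransferase EP300 averaged 356.9 in TIG1A cells, 327.2 in TIG1B cells and 689.6 in control cells and fell in both (-0.93, adjusted p = 0.0404, and -1.07, adjusted p = 0.0469). The arginine methyltransferase CARM1 averaged 1141 in TIG1A cells, 1470 in TIG1B cells and 2577 in control cells, and TRIM28, a corepressor of zinc finger proteins, 5147, 6576 and 10327 in that order. Both fell in TIG1A cells (-1.16, adjusted p = 0.0162, and -0.99, adjusted p = 0.0152), while in TIG1B cells they did not pass (-0.81, adjusted p = 0.0705, and -0.64, adjusted p = 0.081).

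These calls also depended on single arrays. NCOA1 was lost without control 2 or 3, any TIG1A array or TIG1B 3 (adjusted p = 0.058 to 0.0949), EP300 without any array but control 1 in TIG1A cells (0.0565 to 0.115) and without any array at all in TIG1B cells (0.0517 to 0.144), and CARM1 and TRIM28 without control 2, TIG1A 2 or TIG1A 3 (0.0568 to 0.0621 for both).

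Related receptors and enzymes of steroid metabolism had 8 of 13 genes tested. By limma, 1 in TIG1A and 0 in TIG1B cells had an unadjusted p under 0.05 (12.5% and 0%), beside 27.7% and 19.9% of all genes. AKR1C3, an aldo-keto reductase that acts on steroids and prostaglandins, averaged 406.3 ± 49.9 in TIG1A cells, 135.5 ± 13.8 in TIG1B cells and 96.3 ± 40.6 in control cells (SD, n = 3 each). It rose in TIG1A cells by 2.17 (adjusted p = 0.0148) and not past the threshold in TIG1B cells (0.59, adjusted p = 0.371). This call was lost without TIG1A 2 or 3 (adjusted p = 0.0552 to 0.0582). The mineralocorticoid receptor NR3C2, which binds the same DNA elements, averaged 107.4 in TIG1A cells, 118.7 in TIG1B cells and 107.1 in control cells (adjusted p = 0.856 and 0.79). PGRMC2 (0.35 and 0.31), SRD5A1 (0.41 and 0.49) and CYP3A5 (-2.19 and -1.03, with mean intensities of 21.9, 35.6 and 64.9, around or below the array medians) did not pass in TIG1A or TIG1B cells. The enzymes that interconvert active and inactive glucocorticoid, HSD11B1 and HSD11B2, did not reach the filter.

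Among 30 other genes known to be induced through either receptor, 25 were tested, with 3 higher in TIG1A cells, 1 higher in TIG1B cells and 0 lower in either, and medians of 0.19 and 0.13. By limma, 10 and 3 of them had an unadjusted p under 0.05 (40% and 12%), beside 27.7% and 19.9% of all genes. RGS2, which shortens signalling of G protein-coupled receptors, averaged 14495 ± 729.5 in TIG1A cells, 16749 ± 1154 in TIG1B cells and 2648 ± 1696 in control cells (SD, n = 3 each). It rose by 2.63 in TIG1A (adjusted p = 0.014) and by 2.84 in TIG1B cells (adjusted p = 0.0201). No other gene of the 4 lists rose past the threshold in both. CEBPD, a transcription factor of the acute phase response, averaged 2735 ± 371.8 in TIG1A cells, 1305 ± 68.6 in TIG1B cells and 1149 ± 251.9 in control cells and rose by 1.26 in TIG1A cells (adjusted p = 0.0151). Against control, TIG1B cells were at 0.20 for this gene (adjusted p = 0.602). FOXO3, a transcription factor of stress resistance, rose by 0.57 in TIG1A cells (5035, against 3391 in control cells, adjusted p = 0.0395). The difference between TIG1A and TIG1B cells did not pass for CEBPD (1.06, adjusted p = 0.0783), and 0 genes of the lists passed between the lines, where 0.589% of all genes did (0.358% higher and 0.231% lower).

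The rest of this list did not pass, at log2 fold changes that ran from -0.69 (ZFP36) to 1.06 (GAS1) in TIG1A and from -0.37 (PIK3R1) to 1.26 (GAS1) in TIG1B cells. The metallothioneins MT2A (-0.37 and -0.26) and MT1X (-0.39 and -0.13), and the feedback inhibitor ERRFI1 (0.01 and 0.13), had adjusted p-values of 0.408 or more in TIG1A and TIG1B cells, and the growth arrest gene GAS1 stood higher in both lines without passing (1.06, adjusted p = 0.0975, and 1.26, adjusted p = 0.102). The metallothioneins, ERRFI1, ZFP36 and PIK3R1, like HSP90AA1, HSP90AB1, NR3C2 and NRIP1, were picked from their lists after their values were seen. The RGS2 calls were lost without TIG1A 2 or 3 in TIG1A cells (adjusted p = 0.0543 to 0.0547) and without control 2 or any TIG1B array in TIG1B cells (0.0606 to 0.0748), that of CEBPD without control 2 or TIG1A 3 (0.0589 to 0.0599), and that of FOXO3 without control 2 or 3, any TIG1A array or TIG1B 2 or 3 (0.0743 to 0.124). All 10 calls of the 4 lists against control cells were lost without the filter (adjusted p = 0.0659 to 0.202), with the 6 arrays of a comparison alone (0.0582 to 0.141) and by the methods' t-test (0.0614 to 0.187), and 5 of them with a term for the replicate number (0.0557 to 0.0821; NCOA1, EP300 in both lines, FOXO3, and RGS2 in TIG1B cells).

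**Figure D4:**
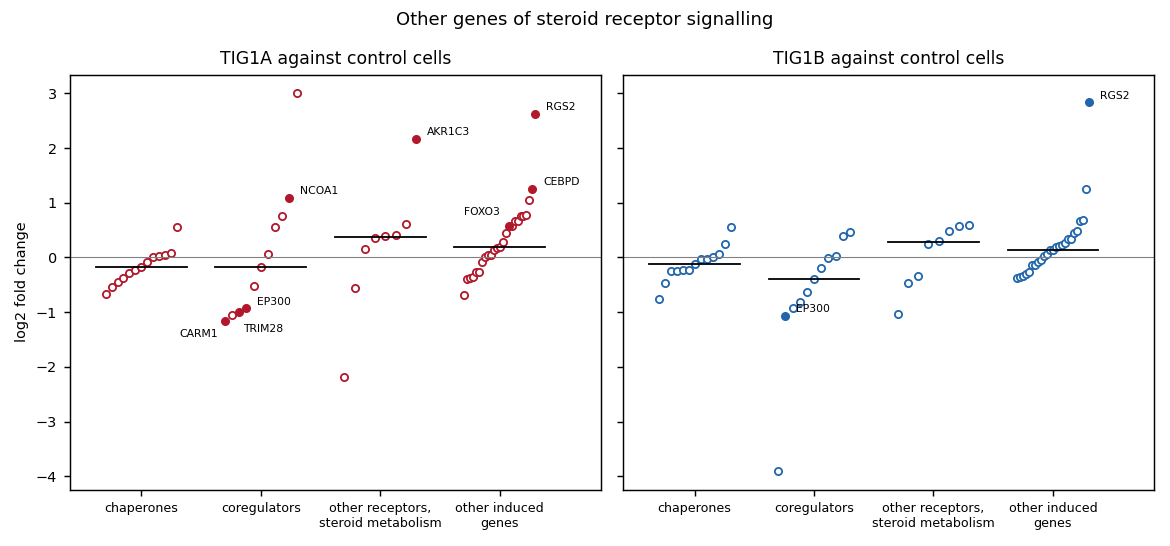
Log2 fold change of the tested genes of 4 lists (1 point per gene, its brightest probe set, sorted within a list), TIG1A against control cells on the left and TIG1B against control cells on the right, with filled, named points at an adjusted p under 0.05 and a bar at each list's median. RGS2 is the highest filled point in both panels, chaperones have none, and the unfilled coregulator points at 3.0 and -3.90 are NRIP1.

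Probe sets that followed each gene most closely were found by Pearson's r over the 9 arrays, on the brightest tested probe set of the gene and all 25318 tested probe sets of other single genes. The closest were LIPA for NR3C1 (r = 0.995), ATOSA for PGR (0.991), ARHGAP35 for FKBP5 (0.992), TNFRSF18 for TSC22D3 (0.982), SNX3 for DUSP1 (0.981), BBS2 for KLF9 (0.974) and C10orf55 for SGK1 (0.987). An r above 0.9 was reached by 329 probe sets for NR3C1, 340 for FKBP5, 286 for DUSP1, 169 for PGR, 105 for SGK1, 52 for TSC22D3 and 15 for KLF9. With 3 groups of 3 arrays, such values describe these arrays only. For NR3C1 they follow 216321_s_at, which correlated with the gene's other tested probe sets at only 0.0836 to 0.254. For TSC22D3 they follow 208763_s_at, at -0.315 and -0.0975 with its other probe sets.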

How the data were processed

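Total RNA of TIG1A, TIG1B and control stable HCT116 cells, 3 arrays each, was measured on 9 arrays. The deposited signal intensities, 1 per probe set, were made by the authors with GCOS (Affymetrix) and scaled globally to a target of 500, and raw scans were not used here. MFP is taken as 5 nM as the labels and the paper give it (the series text gives a micromolar dose). The array annotation gives 1 symbol for 41097 probe sets, several for 1801 and none for 11777. The 62 array controls were left out, probe sets reaching the 50th percentile of their array on 2 of 3 arrays of a group were kept, and intensities under 1 were set to 1 before log2. Group means were fitted to all 9 arrays with limma 3.58.1 in R 4.3.3 (6 residual and 1.84 prior degrees of freedom), after a run on simulated data, with Benjamini-Hochberg adjustment at 0.05. Every gene of the set was named on all its probe sets, and up to 4 genes of each pathway list by the smallest p. Genes, markers and lists were chosen with earlier results of these data known. The number of arrays limits the precision. A planned comparison of the receptor proteins was not run. Alternatives were other scaling, offset, filters, variance model, tests and probe set summary, the 6 arrays compared, a replicate term, and each array left out.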

Additional observations from a re-analysis of the deposited data

How the results depend on the processing

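Of the 17 tested probe sets of the receptors and targets, 5 passed in TIG1A and 1 in TIG1B against control cells, 0 between the lines and 2 in the F test. Without the filter and with the replicate number as a block these numbers were 0, 0, 0 and 0, and with the 6 arrays of a comparison alone and by the methods' t-test after Benjamini-Hochberg adjustment 0, 0 and 0 (8, 4 and 5 unadjusted, beside 6150, 4594 and 4775 of all 29977). With the filter at the 75th percentile they were 7, 2, 0 and 7, but fewer than the 17 probe sets were tested there. That filter left out the DUSP1 probe set that had passed in TIG1A cells, and the brightest KLF9 probe set. Of the full 17, the numbers were 8, 3, 0 and 7 with trend and robust options, and 7, 1, 0 and 4 with an offset of 50. Leaving out 1 array gave 0 to 6, 0 to 1, 0 to 0 and 0 to 4. Over all probe sets 1818, 535 and 125 passed in the pairwise comparisons, 59, 11 and 0 without the filter, 166, 15 and 2 with 6 arrays, 637, 2 and 0 with the block, 121, 6 and 66 by the t-test, 3571, 1563 and 598 with trend and robust options, 3601, 1794 and 676 with the higher filter (14825 probe sets), 2745, 939 and 220 with the offset, and 1631, 356 and 53 after median centring. Leaving out 1 array gave 255 to 2799, 59 to 1041 and 0 to 153. By the F test 1219 passed, 24 without the filter, 1 with the block, 2123 with the offset, 3419 with the higher filter, 3307 with trend and robust options and 128 to 1956 with 1 array left out. Median centring moved the median log2 fold change of all probe sets to 0.121 in TIG1A and 0.116 in TIG1B cells, against -0.0437 and -0.03.

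Deviations from the group means correlated at -0.0369 to 0.192 for same-numbered arrays of different groups (9 pairs). For other arrays of different groups they correlated at -0.126 to 0.0895 (18 pairs). Same-numbered TIG1A and TIG1B arrays gave 0.192 (replicate 1), 0.0494 (replicate 2) and 0.0644 (replicate 3). TIG1A 1 gave -0.117 with TIG1B 2 and -0.118 with TIG1B 3. However, TIG1A 2 with TIG1B 3 gave 0.0785 and TIG1A 3 with TIG1B 2 gave 0.0895. Whether the replicate numbers pair the samples was not tested.

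PGR 208305_at passed in TIG1A cells under 5 of 10 alternatives, among them median centring (0.75, adjusted p = 0.0355). Another was the mean over tested probe sets (0.59, adjusted p = 0.0455), which for PGR holds 208305_at alone. Averaging a gene's probe sets ended the TIG1B call of EP300 (adjusted p = 0.0518), turned NR3C1 in TIG1B cells to -0.24, TSC22D3 in TIG1A cells to -0.10 and DUSP1 between the lines to -0.05, and took CEBPD in TIG1A cells to 0.85 (adjusted p = 0.179). EP300 was also lost after median centring in TIG1A (adjusted p = 0.0665) and TIG1B cells (0.0766), and after quantile normalization in TIG1B cells (0.0557). KLF9 203543_s_at, near 0, became 0.03 (quantile) and 0.16 (median centring) in TIG1A cells, -0.08 (mean) and -0.01 (offset) in TIG1B cells, and 0.02 (mean) and 0.00 (median centring) between the lines, and ranged over -0.33 to 0.58, -0.32 to 0.60 and -0.15 to 0.19 with 1 array left out. PER1 36829_at ranged over -0.20 to 0.06 between the lines. The causes were not tested.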

Other observations

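NRIP1 (RIP140), a corepressor of nuclear receptors that was chosen here after its values were seen, read 455.2 to 1010 in TIG1A cells, 1.67 to 26.5 in TIG1B cells and 14.0 to 233.4 in control cells on its brightest probe set. The range of TIG1A cells did not overlap with that of TIG1B or of control cells, TIG1B and control cells overlapped, and the TIG1B arrays all lay under their array medians, so the fitted differences rest partly on values near the floor. By limma TIG1A against TIG1B cells did not pass (adjusted p = 0.0874), nor did TIG1A (adjusted p = 0.195) or TIG1B (adjusted p = 0.165) against control cells.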
